A study of Rattus norvegicus with 35 samples.

Results

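Osteoclasts are the multinucleated cells that resorb bone. The set described here held 10 genes known from these cells or from the signals that act on their precursors. These genes are Tnfsf11, Tnfrsf11b, Tnfrsf11a, Calcr, Itgb3, Ctsk, Acp5, Atp6v0d2, Oscar and Nfatc1. They were found on the array by the gene symbol or the description that the scanner output gives for a probe. By this rule 8 of the 10 genes had a probe, of 12621 gene symbols in all that were paired with a probe. They had 9 probes among 41012 on the array, since Calcr had 2. Oscar and Nfatc1 had no probe with their symbol.

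RNA of the olfactory epithelium of Brown Norway rats, an inbred strain, was hybridized to 35 arrays with 1 dye. The newborn group held 19 pups of 3 to 5 days from 4 litters, L1 with 4 pups and L2, L3 and L4 with 5 each, 1 array a pup and sex not known. The adult group held 4 males of 9 weeks and the old group 4 males of 22 months, each with 2 arrays, A and B. The labels give no genetic change and no treatment for any rat. The pups had been bought with their mothers, and the old rats had been kept in the animal house from 3 weeks of age. By the study's methods, each pup gave RNA of 1 side of the nose and the older rats RNA of both sides, but the labels do not say which side A or B is. The rat was the replicate, and the 2 arrays of a rat were averaged. Adult and old rats were all male, so that age and sex cannot be told apart in comparisons with pups.

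Bone is resorbed by osteoclasts, which form by fusion of cells of the monocyte lineage. Cells of the osteoblast lineage and others make the ligand RANKL, encoded by Tnfsf11, which binds the receptor RANK, encoded by Tnfrsf11a, on the precursor cells. Osteoprotegerin, encoded by Tnfrsf11b, is a soluble decoy receptor that binds RANKL and prevents that contact. A mature osteoclast holds on to bone through an integrin that contains the Itgb3 chain, carries the calcitonin receptor encoded by Calcr, acidifies the space beneath it with a proton pump, and releases the collagen-cleaving protease cathepsin K (Ctsk) and the tartrate-resistant acid phosphatase (Acp5). The olfactory epithelium lines thin bony turbinates.

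A probe on this array has 60 bases. The last 30 bases are shown for probes of the genes that the main results turn on, since each value below is the signal of 1 probe. Capitals mark the hexamer AATAAA, the usual polyadenylation signal, which occurred in the Ctsk probe and in none of the other probes of the set.
Ctsk: ctttgcatttgaAATAAAgtatctcgttta
Acp5: tgggagtggggctttcttttaaatcaagca
Atp6v0d2: agttgaaggagcaggagatgagaaatatcg
Tnfsf11: ttggggctttcaaagttcaagacatagact
Tnfrsf11b: aagctttgagatttcagttgtgttaaaggc
Tnfrsf11a: cgtatatccagcacctaatgtagttgccaa

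In build rn3, as the files give it, the Ctsk probe lay at chr2:190368355-190368414 on the plus strand, and its GC content was 25%, the lowest of the set. The probe of Tnfsf11 lay at chr15:59413619-59413678 and that of Tnfrsf11b at chr7:90641112-90641171, both on the minus strand. The Tnfrsf11a probe lay at chr13:12191787-12191846 on the plus strand. The Atp6v0d2 probe lay at chr5:34476448-34476507 on the minus strand. The files give no position for the probes of Acp5 and Itgb3. Of the 2 Calcr probes, 1 was above background on 1 of 35 arrays, so only the other is used.

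A level is the log2 of the background-subtracted signal over the median of its array, so 0 is the array median. A change is a difference of levels on that log2 scale, tested with limma over 6 groups, and a gene was called at an adjusted p under 0.01. The newborn value in a change is the mean of the litter means, with pups as replicates. Its SE and p-value thus measure the spread of rats within a litter or age group, not the spread between litters. Levels of different genes are not compared, since probes differ in how strongly they bind. Array medians were 42.1 to 87.7 intensity units in newborn, 81.6 to 162 in adult and 37.1 to 55.3 in old rats. The 8 adult arrays were scanned on days of their own with an earlier software release, so that age and scan cannot be told apart for adult rats. L1 was scanned on the same day as the old rats, and the other 3 litters on later days. The tissue label was checked with the mean level of 10 genes of mature olfactory sensory neurons, which was 3.21 to 4.17 in newborn, 5.40 to 5.81 in adult and 5.94 to 6.30 in old rats. With RNA from whole tissue, fewer cells of a type and less RNA per cell cannot be told apart.

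All 8 measured genes were higher in adult than in old rats, and their groups did not overlap (8 of 8). Tnfsf11, Calcr and Itgb3 were above background on 1, 0 and 0 of 8 old arrays and were tested because of the other groups. For these genes the call and the lack of overlap rest on old signals at or near background. Over all probes tested, 16.2% were called higher in adult than in old rats and 28.4% lower, and every adult rat lay above every old rat for 19.8% and below for 35.7%. With the methods' t-test after Benjamini-Hochberg adjustment 4 of the 8 were called, and Tnfsf11, Tnfrsf11b, Itgb3 and Atp6v0d2 were not. In newborn against old rats 6 of the 8 were called higher and 1, Tnfrsf11a, lower, where 28.5% and 30.2% of all probes were called. The 6 include Tnfsf11, Calcr and Itgb3, with the same limit. In newborn against adult rats 2 were called higher, Acp5 and Calcr, and 1 lower, Tnfrsf11a, where 37.7% and 25.9% of all probes were called. The median change of the 8 genes was 1.77 in adult against old, 2.19 in newborn against old and -0.15 in newborn against adult rats. The median over all tested probes was -0.17, -0.03 and 0.16 in the same order. With Tnfsf11, Calcr and Itgb3, which were at or near background in old rats, at the lower bounds given below, the first 2 medians of the 8 genes were 1.34 and 1.12. The comparisons share rats, so their counts are not independent of each other.

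**Figure D1:**
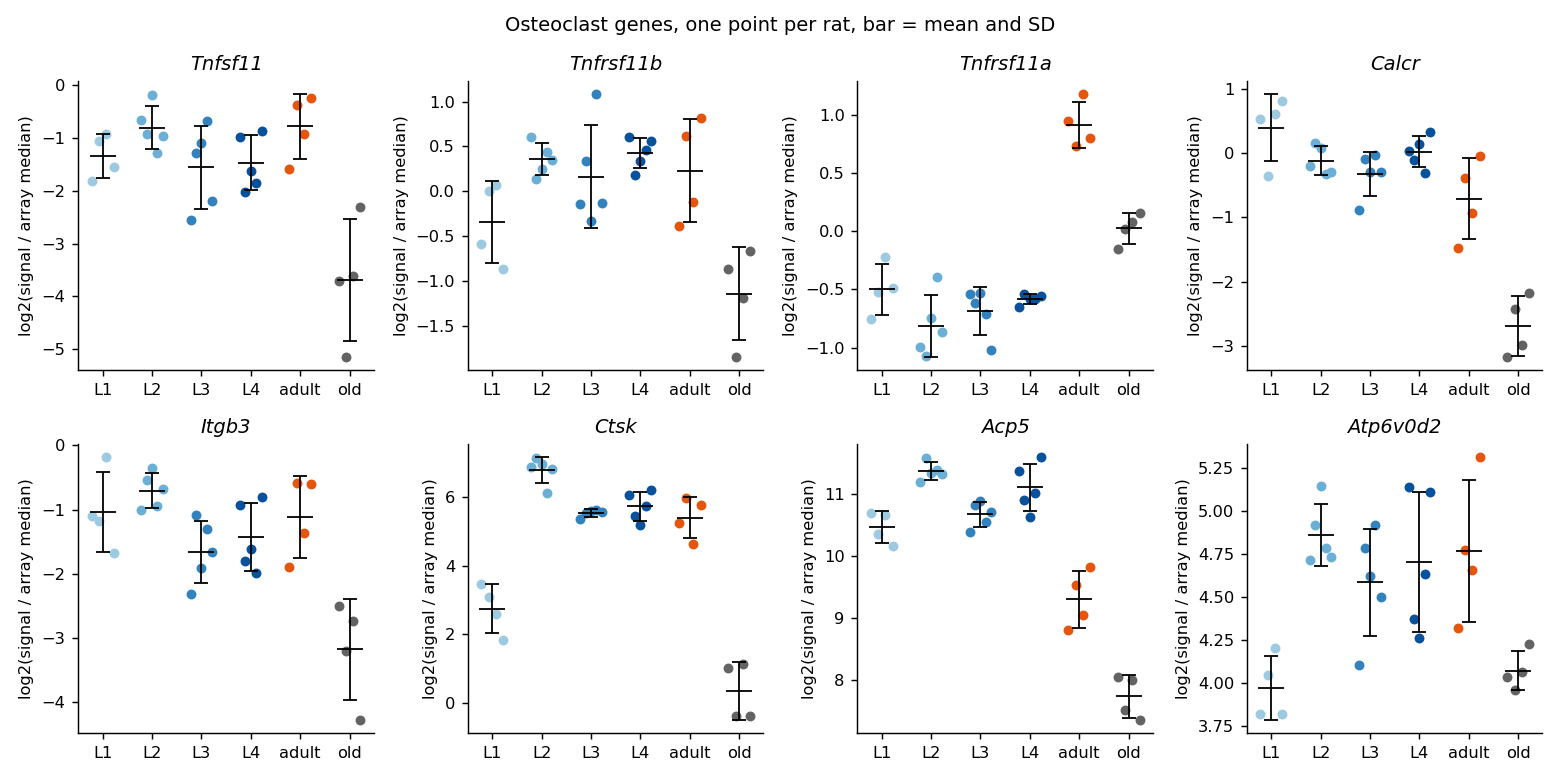
Level of each of the 8 measured genes on the log2 scale (vertical axis, signal over array median) in the 4 litters, adult and old rats (horizontal axis), with 1 point per rat and a bar for the mean and SD. In every panel except that of Tnfrsf11a the old rats lie at or near the bottom, and in that of Ctsk the L1 pups lie between the old rats and the other litters.

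**Figure D2:**
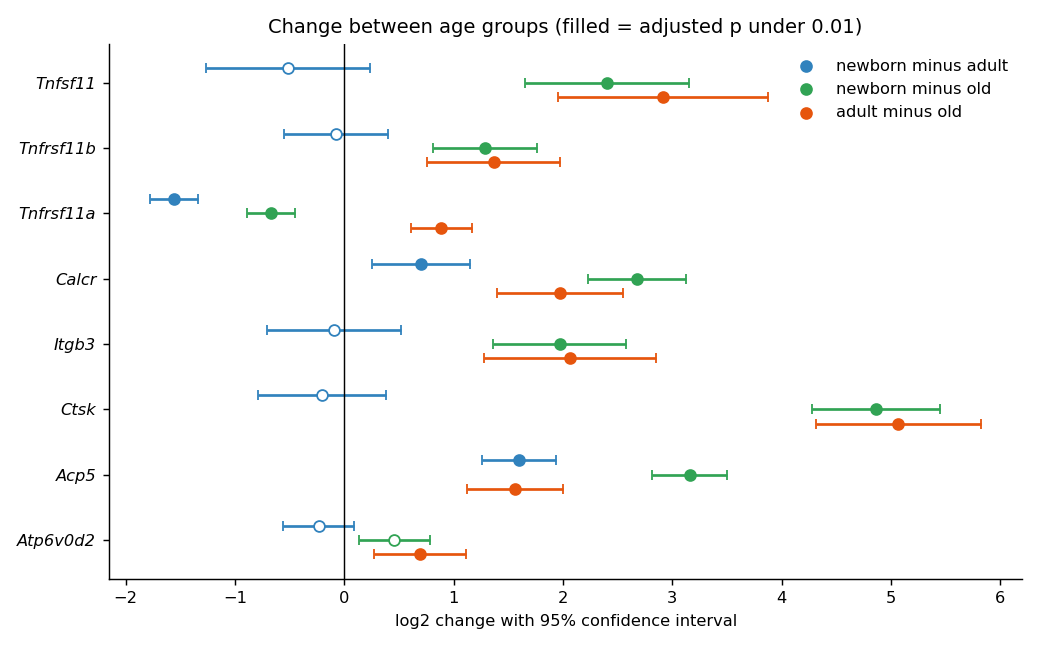
Change of each gene on the log2 scale with its 95% confidence interval (horizontal axis) for newborn minus adult, newborn minus old and adult minus old rats. Filled points passed an adjusted p of 0.01, and all 8 adult minus old points are filled and lie to the right of 0. For Tnfsf11, Calcr and Itgb3 the old signal near background was taken as measured, so the size of their change against old rats is uncertain.

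Of the signalling genes, Tnfsf11, the RANKL ligand, was higher in adult than in old rats. Its levels in adult rats were -1.58, -0.38, -0.92 and -0.23, and in old rats -3.71, -5.15, -3.61 and -2.30. Every adult rat lay above every old rat. The probe was above background on 7 of 8 adult arrays but on 1 of 8 old arrays, so only a lower bound on the change is given. For such a bound, each old array was given the lowest signal among its probes well above background, or the gene's own signal where that was higher. Tnfsf11 was at least 2.5-fold higher in adult than in old rats. The change with the old signals as measured had an adjusted p of 1.33e-05 (limma, n = 4 and 4 rats). The bound itself was not tested, here or for the genes below. The 19 pups had a lowest level of -2.55, a median of -1.09 and a highest of -0.18, which overlapped the old rats at one end. Newborn and adult rats differed by -0.51 ± 0.36 (SE, adjusted p = 0.206), which did not pass.

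Tnfrsf11b, the decoy receptor for RANKL, was also higher in adult than in old rats. Its levels were -0.38, 0.61, -0.12 and 0.81 in adult rats and -0.86, -1.84, -1.18 and -0.66 in old rats, and the groups did not overlap. The change was 1.37 ± 0.30 (SE, adjusted p = 0.000412), or 2.58-fold. In the pups the lowest level was -0.86, the median 0.25 and the highest 1.08, so the lowest pups reached the old range. The newborn mean was 1.29 ± 0.23 above the old mean (SE, adjusted p = 3.12e-05). Its change against the adult mean was -0.08 ± 0.23 (SE, adjusted p = 0.773) and did not pass.

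The difference of the Tnfsf11 and Tnfrsf11b levels sets the ligand against its decoy within each rat. It was -1.44 ± 0.43 over the 4 litter means (SD, n = 4) and -1.01 ± 0.17 in adult rats (SD, n = 4). The newborn minus adult difference was -0.44 (exact two-sided permutation test, p = 0.171), where the smallest p that 4 against 4 allows is 0.0286. It was not tested against old rats, in which Tnfsf11 was above background on 1 array. With each rat's median per GC class of probe made equal, an alternative chosen after seeing the data, the difference was -0.72 and reached that smallest p. With 1 pup or adult rat left out, it was -0.50 to -0.36, with a p of up to 0.343 in the same permutation test.

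Tnfrsf11a, the receptor RANK, was the one gene whose mean level was lower in pups than in adult and in old rats. Its levels were 0.95, 0.73, 1.17 and 0.79 in adult rats and -0.16, 0.01, 0.08 and 0.16 in old rats. The pups had a lowest level of -1.07, a median of -0.58 and a highest of -0.22. The 3 age groups did not overlap, in the order newborn, old and adult. The newborn minus adult change was -1.56 ± 0.11 (SE, adjusted p = 5.93e-12), a level 2.94-fold lower in pups. Adult rats were higher than old rats by 0.89 ± 0.14 (SE, adjusted p = 7.93e-06). The litter means of Tnfrsf11a ranged from -0.81 to -0.50 and their difference did not pass the F test (adjusted p = 0.156).

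Calcr, the calcitonin receptor, lay near background in old rats. Its levels were -1.47, -0.39, -0.93 and -0.04 in adult rats and -3.17, -2.42, -2.97 and -2.18 in old rats. The probe was above background on all 19 newborn arrays, 7 of 8 adult arrays and no old array. By the same bound, the level was at least 2.68-fold higher in adult and at least 4.36-fold higher in newborn rats. The changes with the old signals as measured had adjusted p = 2.69e-06 and 2.02e-10 (limma). The pups had a lowest level of -0.89, a median of -0.10 and a highest of 0.81, and 0.70 ± 0.22 more than adult rats on average (SE, adjusted p = 0.00608), with overlap. That call was lost under 9 of the other settings. It was also lost without adult rat 13, where the change was 0.45, and without adult rat 15, where it was 0.63.

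Itgb3, the integrin chain of the sealing zone, was near background in old rats as well. Its levels were -1.89, -0.58, -1.36 and -0.60 in adult rats and -2.50, -3.20, -2.72 and -4.27 in old rats. It was above background on 16 of 19 newborn, 7 of 8 adult and no old arrays. Adult rats were at least 2.07-fold higher and newborn rats at least 1.94-fold higher than old rats. With the old signals as measured, these changes had adjusted p = 7.38e-05 and 3.31e-06 (limma). Newborn and adult rats differed by -0.09 ± 0.30 (SE, adjusted p = 0.785), with a 95% interval from -0.70 to 0.52.

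Of the genes that act on bone directly, Ctsk, the protease that cleaves collagen, had the largest change between adult and old rats among the 5 genes expressed in every group. Its levels were 5.26, 5.97, 4.63 and 5.77 in adult rats and 1.02, -0.40, 1.11 and -0.38 in old rats. The change was 5.07 ± 0.36 (SE, adjusted p = 1.32e-10), or 33.6-fold, and the probe was above background on all 35 arrays. The 4 L1 pups had levels of 3.47, 3.09, 2.59 and 1.83. The L2 pups had levels of 6.89, 7.13, 6.98, 6.13 and 6.83. The L3 pups had 5.36, 5.54, 5.61, 5.62 and 5.57, and the L4 pups 6.07, 5.44, 5.20, 5.74 and 6.21. All L1 pups thus lay below all other pups and above all old rats. The litters differed by the F test (adjusted p = 3.34e-08), with 4.05 between the means of L2 and L1. L1 shared no slide and no scan day with the other litters, so that litter and scan cannot be told apart for L1. Ctsk, Acp5 and Atp6v0d2, 3 of the 8 genes, were called different among the litters, where 33.6% of all tested probes were. That number was 1 with slide, scan day or rat as a random block and 0 without L1.

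The base composition of the probe moved with these comparisons. Among 117 tested probes of at most 25% GC the median adult minus old change was 1.65, and among 6315 probes of over 50% GC it was -0.55. The change of Ctsk lay above the 95th percentile of its class, which was 3.95, and 1 of the 117 probes, Ctsk itself, was as far from 0. The difference between L1 and the mean of the other litters was -3.28 for Ctsk and -1.52 for the median of its class, whose 5th percentile was -3.25. When each rat's median in each GC class was made equal over rats, an alternative chosen after seeing the data, the adult minus old change of Ctsk was 3.57 ± 0.34 (SE, adjusted p = 1.26e-08) in place of 5.07. Of the 8 genes, 7 were then called higher in adult than in old rats. The part of base composition in the remaining changes was not tested.

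**Figure D3:**
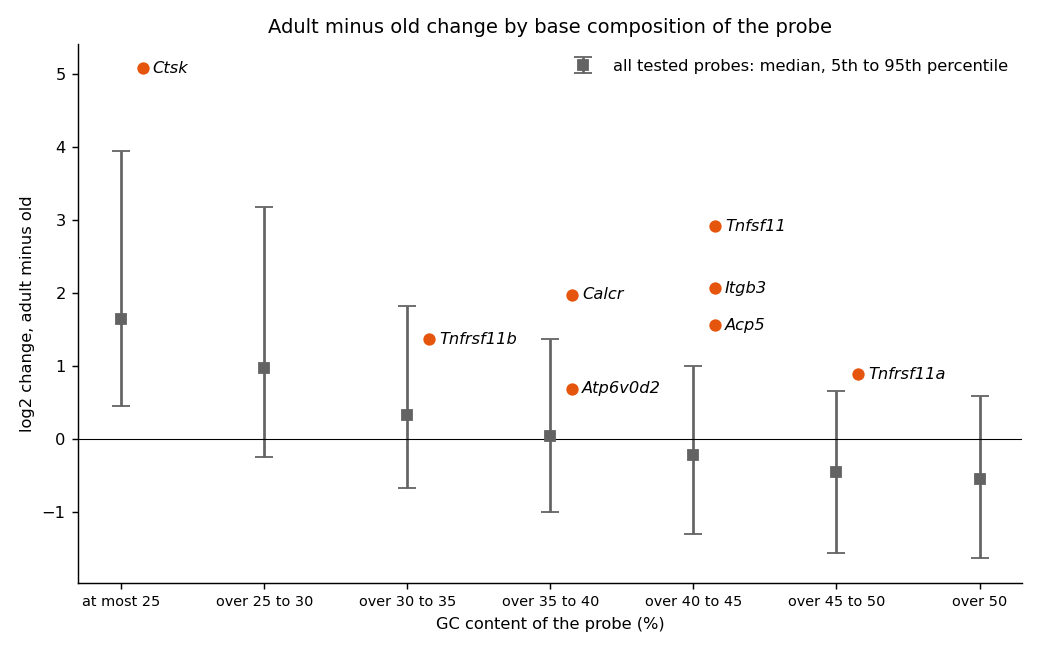
Change between adult and old rats on the log2 scale (vertical axis) by the GC content of the probe (horizontal axis). Squares with bars give the median and the 5th to 95th percentile over all tested probes of a class, and points give the 8 genes. The medians fall from 1.65 to -0.55 with rising GC, and 6 of the genes lie above the bar of their class, all but Tnfrsf11b and Atp6v0d2, with the old signals of Tnfsf11, Calcr and Itgb3 taken as measured.

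Acp5, the acid phosphatase used to stain osteoclasts, fell from newborn to adult to old rats without overlap. The pups had a lowest level of 10.16, a median of 10.89 and a highest of 11.60. The adult levels were 8.81, 9.53, 9.05 and 9.83, and the old levels 8.05, 7.53, 8.01 and 7.37. Newborn rats were higher than adult rats by 1.60 ± 0.17 (SE, adjusted p = 8.37e-09), or 3.03-fold. The 4 litter means had an SD of 0.41, which that SE does not measure. Adult rats were higher than old rats by 1.56 ± 0.21 (SE, adjusted p = 1.65e-06), or 2.95-fold. Among the litters the means ran from 10.47 in L1 to 11.37 in L2 (F test, adjusted p = 0.00235). Here too, L1 differed from the other litters in slide and scan day.

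Atp6v0d2, a subunit of the proton pump that osteoclasts hold in large amounts, changed least of the 8 between adult and old rats. Its levels were 4.32, 4.77, 4.65 and 5.31 in adult rats and 4.03, 3.95, 4.06 and 4.23 in old rats. The change was 0.69 ± 0.20 (SE, adjusted p = 0.00585), or 1.62-fold. The call was lost without adult rat 14 or 16 and without old rat 17, 18 or 19, with the smallest change, 0.51, without rat 16. It was also lost with the GC classes made equal, at 0.54 (adjusted p = 0.0186). Pups ranged from 3.82 to 5.14 with a median of 4.63, and the 4 L1 pups overlapped the old rats. The newborn minus old change was 0.46 ± 0.16 (SE, adjusted p = 0.0136) and did not pass.

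Oscar and Nfatc1, an osteoclast receptor and the transcription factor that drives the osteoclast programme, were looked for by other names after the rule found none. A probe that a synonym pairs with Oscar and a probe described as similar to Nfatc1 were above background on no array. No level is given for either gene.

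L1 and the old rats shared a scan day, so their comparison holds no difference in scan day, although their slides differed. Of the 8 genes, 5 were higher in L1 and 1, Tnfrsf11a, was lower, where 18.9% and 27.1% of all probes were called. The 5 include Tnfsf11, Calcr and Itgb3, whose calls rest on old signals at or near background. These genes were tested because of the other groups. Acp5 was higher by 2.72 ± 0.21 (SE, adjusted p = 2.51e-10) and Ctsk by 2.40 ± 0.36 (SE, adjusted p = 6.08e-06). For Tnfsf11 the lower bound was 1.70-fold, for Calcr 5.76-fold and for Itgb3 2.19-fold. The Tnfsf11 change with the old signals as measured had an adjusted p of 0.000149 (limma). Atp6v0d2 had a difference of -0.10 ± 0.20 (SE, adjusted p = 0.697), and Tnfrsf11b one of 0.80 ± 0.30 (SE, adjusted p = 0.0246).

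The 2 arrays of an adult rat differed in the same direction for several of the genes. Array B was higher than array A in all 4 adult rats for Ctsk, Calcr, Tnfrsf11b and Atp6v0d2. The share of all tested probes with this pattern is not given here, so it is not shown to be particular to these genes. The mean B minus A difference was 0.64 ± 0.43 (SD, n = 4) for Ctsk, 0.70 ± 0.46 for Calcr, 0.77 ± 0.51 for Tnfrsf11b and 0.49 ± 0.33 for Atp6v0d2. Array B was higher in 1 of 4 adult rats for Tnfrsf11a. The mean of 16 osteoblast and bone matrix genes was also higher on array B in all 4 adult rats, by 0.65 ± 0.48 (SD, n = 4). So were the mean of the cartilage genes, by 0.41 ± 0.18, and that of the macrophage genes, by 0.28 ± 0.14. The median over all tested probes differed by -0.08 to 0 in these rats. In old rats the Ctsk difference was -0.15 ± 0.32 (SD, n = 4), with B higher in 2 of 4. Array B was higher in all 4 old rats for Atp6v0d2, by 0.075 ± 0.047, and in 3 of 4 for Acp5, Calcr and Tnfrsf11a, and in none for Tnfsf11. The old signals of Calcr and Tnfsf11 were at or near background, so their directions in old rats carry little information.

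**Figure D4:**
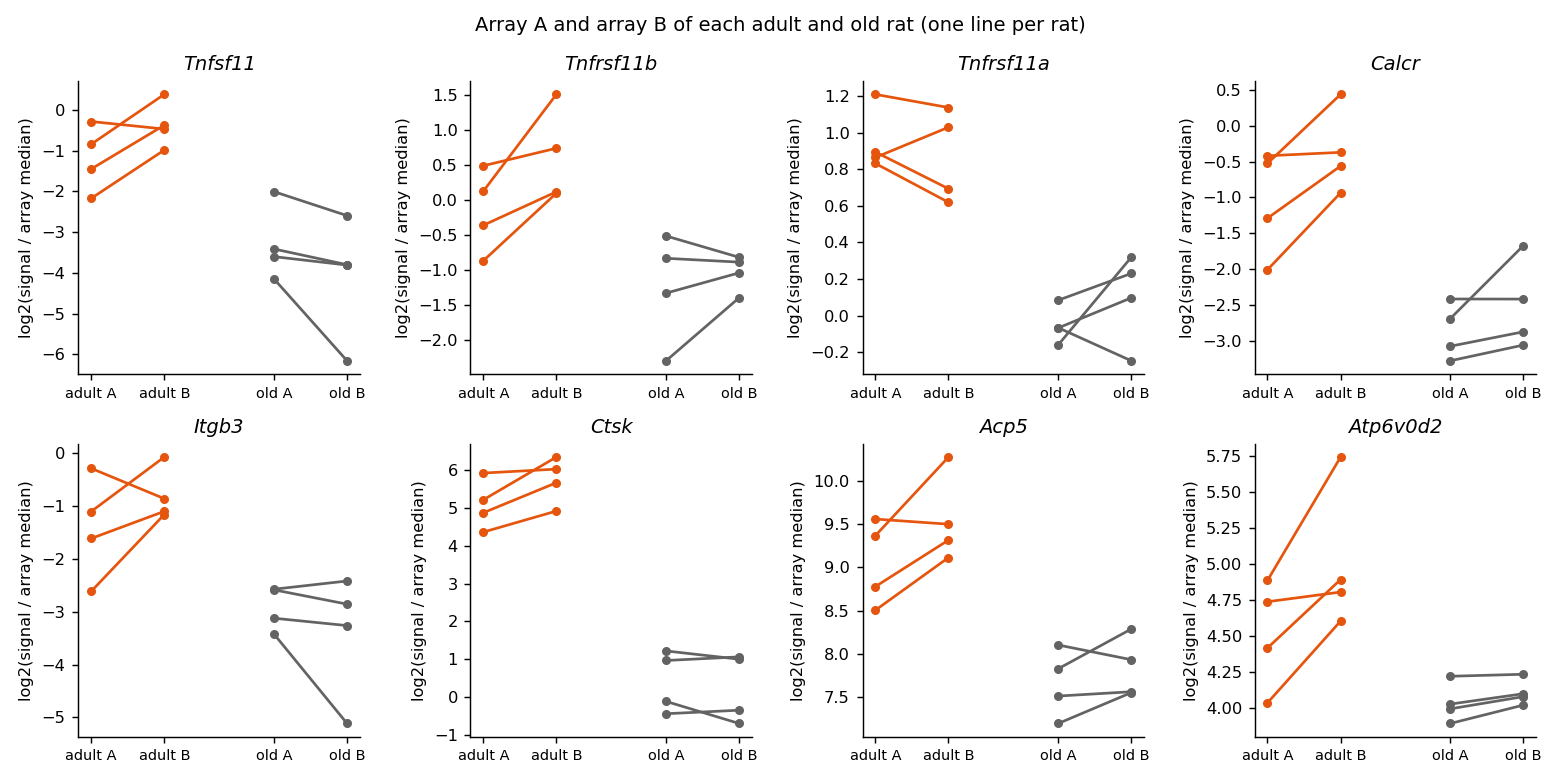
Level on the log2 scale (vertical axis) on array A and array B of each adult and old rat, with 1 line per rat. In adult rats all 4 lines rise from A to B for Ctsk, Calcr, Tnfrsf11b and Atp6v0d2.

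Over the 27 rats, deviations from the group mean were compared between genes as a description; these share arrays, scan days and dissections. Of the 28 pairs among the 8 genes, 21 had a positive Pearson r. The values ran from -0.55 for Ctsk and Tnfrsf11a to 0.78 for Acp5 and Itgb3. The probes of Ctsk and Tnfrsf11a had the lowest and the highest GC content of the set, 25% and 48.3%. The part of base composition in the r values was not tested. Every pair with a negative r held Tnfrsf11a, except Ctsk and Calcr with -0.11. The share of positive r over pairs of all tested probes is not given here, so the count is not shown to be particular to the set. The ligand Tnfsf11 and its decoy Tnfrsf11b had an r of 0.73. All r values of Tnfsf11, Calcr and Itgb3 take in the old rats, where these genes were at or near background. The named gene most like Atp6v0d2 was Tcirg1, another pump subunit, with an r of 0.93, followed by Cd68, Slamf9, Cmtm3 and Ctsz. Among the genes most like Acp5 were Dnase2b, with an r of 0.90, Mmp9, Dap and Scarf1. Ctsk was most like Pls3, with an r of 0.83, then Strn3, Gpx7, Morf4l1 and Cdk2ap1. Tnfrsf11a was most like Dynlt3, with an r of 0.78, then Or10a49, Dpagt1, Tbc1d20 and Pgam1. The mean of the osteoblast and bone matrix genes had an r of 0.79 with Acp5, 0.72 with Ctsk, 0.71 with Itgb3, 0.29 with Calcr and -0.29 with Tnfrsf11a, and of 0.62 to 0.67 with the other 3 genes.

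Other genes of the osteoclast pathway did not move in one direction between adult and old rats. Of 26 tested, 6 were higher in adult rats and 7 lower, with a median change of -0.12. Over all probes 16.2% were called higher and 28.4% lower, with a median of -0.17. The counts and the median of the 26 genes lay near these values. Mmp9, a gelatinase of osteoclasts, was higher by 2.40 ± 0.27 (SE, adjusted p = 1.20e-07). Dcstamp, needed for the fusion of osteoclast precursors, was higher by 1.77 ± 0.32 (SE, adjusted p = 6.17e-05). Mmp14, a membrane protease of many cells, was higher by 1.63 ± 0.15 (SE, adjusted p = 5.02e-09). Of the 7 lower genes, named after their values were seen, Trem2, a receptor of myeloid cells, had the largest change, -1.50 ± 0.13 (SE, adjusted p = 3.65e-09), and the others were Fos, Ostm1, Csf1, Nfkb2, Tyrobp and Cd9. In newborn against adult rats 11 of the 26 were higher and 4 lower, where 37.7% and 25.9% of all probes were called. Mmp9 was higher by 1.87 ± 0.21 in newborn rats (SE, adjusted p = 3.53e-08).

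The proton pump shows how one member stands among its partners. Of 17 other pump subunits tested, none were higher in adult than in old rats and 10 were lower. Over all probes the shares were 16.2% and 28.4%. The median change of the 17 subunits was -0.44. Atp6v0d2 changed by 0.69 in the other direction. Tcirg1, a pump subunit that was counted with the pathway genes instead, had a mean level of 5.86 in adult and 5.98 in old rats. The pump is found in all cells, and the subunits of the list are not those of osteoclasts alone.

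Bone-forming genes were lower in old rats too. Of 16 osteoblast and bone matrix genes tested, 12 were higher in adult than in old rats and 1, Runx2, was lower, with a median change of 2.41. Over all probes the shares were 16.2% and 28.4%. Ibsp, a bone matrix protein, was higher by 4.07 ± 0.24 (SE, adjusted p = 9.85e-12) and Dmp1, made by osteocytes, by 3.81 ± 0.28 (SE, adjusted p = 2.09e-10). Phex, a peptidase of osteoblasts and osteocytes, was above background on 7 of 8 adult arrays and no old array and was at least 2.74-fold higher in adult rats. The mean level of the 16 genes was 5.61 to 6.39 in adult rats, 3.23 to 4.07 in old rats and 5.44 to 6.96 in pups. In newborn against old rats 15 of the 16 were higher and 1 was lower, where 28.5% and 30.2% of all probes were called. How far the amount of bone in the dissected tissue bears on the osteoclast genes was not tested.

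Markers of other cells were counted between adult and old rats in the same way. Over all probes 16.2% were called higher in adult than in old rats and 28.4% lower. Of 14 macrophage genes 2 were higher in adult rats and 6 lower, with a mean level of 2.62 to 3.22 in adult and 3.30 to 3.71 in old rats. Of 14 cartilage genes 5 were higher in adult rats and 1 lower, with a mean level of 1.97 to 2.55 in adult, 1.19 to 1.51 in old and 3.27 to 4.60 in newborn rats, so that the old rats lay below all others here too. In newborn against adult rats 11 of the 14 cartilage genes were higher and none lower, where 37.7% and 25.9% of all probes were called. All 9 skeletal muscle genes tested had higher levels in pups than in adult rats, and 1 was higher in adult than in old rats. Of 7 T cell genes 1 was higher in adult rats and 2 lower, and of 8 endothelial genes none were higher and 3 lower. Of 10 genes of mature olfactory sensory neurons none were higher in adult rats and 4 lower, and of 8 sustentacular cell genes 1 was higher and 3 lower. The part of these cells in the levels of the osteoclast genes was not tested.

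**Figure D5:**
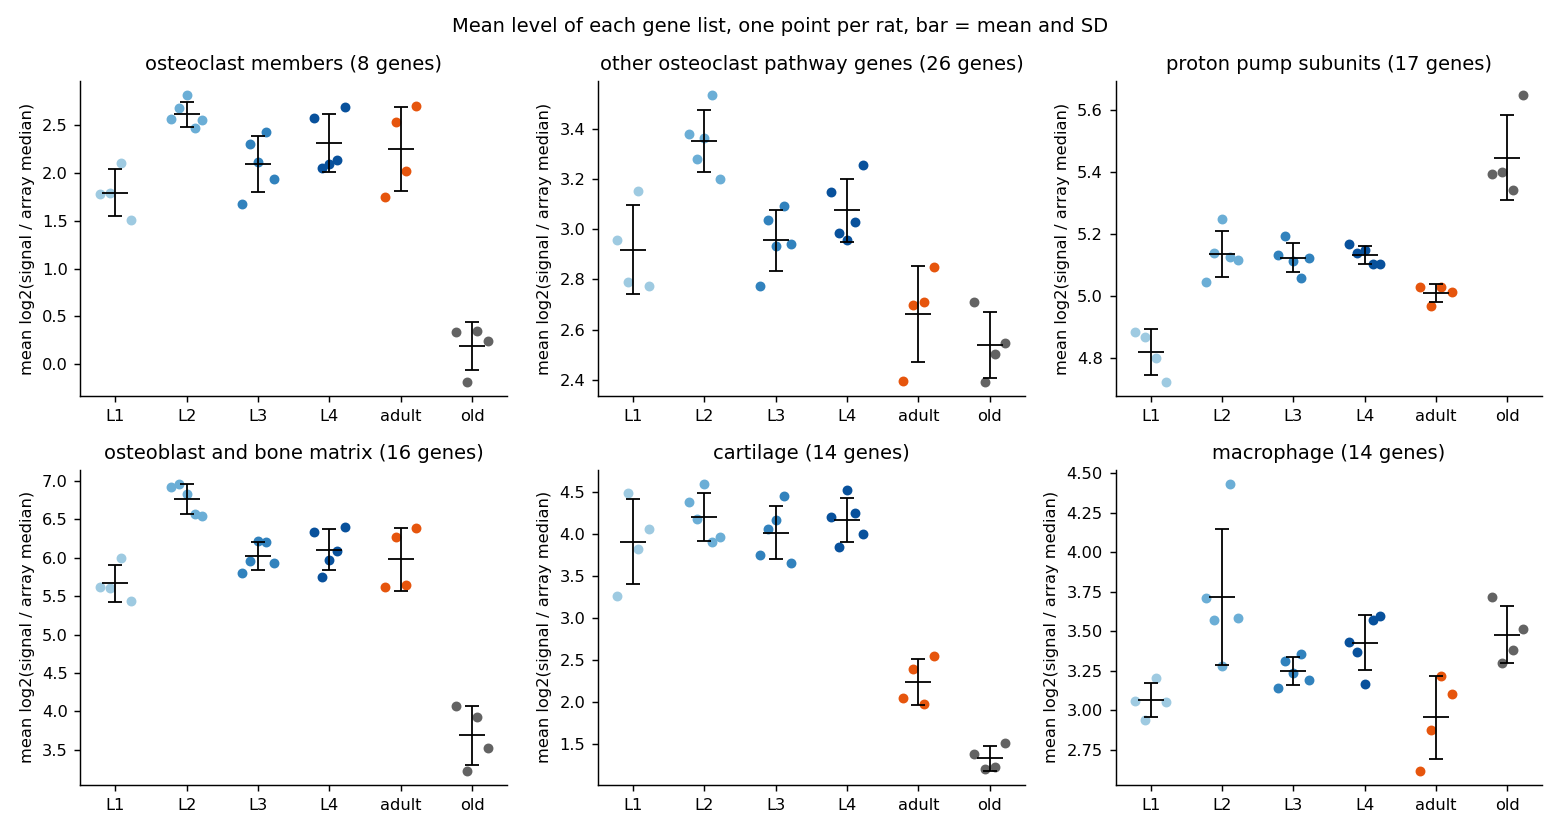
Mean level of each gene list on the log2 scale (vertical axis) in the 4 litters, adult and old rats (horizontal axis), with 1 point per rat and a bar for the mean and SD. The old rats lie below all other rats for the osteoclast genes, the osteoblast and bone matrix genes and the cartilage genes. They do not for the other osteoclast pathway genes and the macrophage genes, and lie above all others for the proton pump subunits.

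RefSeq promoters of build GRCr8, each from 250 bases before to 50 after a gene start, were given for 5 of the 10 genes, with 2 for Acp5. They were searched on both strands. The motif TCATGTG, an M-box bound by the factor MITF, occurred once in the promoter of Ctsk and once in one promoter of Acp5, and in 3.56% of all 33469 promoters. The core GGAAA of NFAT sites occurred in the promoters of Ctsk and Oscar and in one of Acp5, and in 62.7% of all promoters. The motifs TGANTCA and CACGTG occurred in none of these promoters, and in 7.33% and 6.42% of all. These matches are descriptions of sequence only.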

How the data were processed

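The authors hybridized Cy3-labelled RNA to whole rat genome arrays and deposited the Feature Extraction output (releases 9.5.1.1 and 9.5.3.1), whose intensity values are background-subtracted and not normalized between arrays. A GeneSpring matrix deposited by the authors holds each signal as a ratio to the array median and to a value for that probe; it served only as an alternative. Here, 890 outlier values on 494 probes were left out, signals were scaled to the array median, floored at 0.01 and put on a log2 scale. Probes above background on at least 3 arrays of a litter or 6 of 8 adult or old arrays were tested (28926 of 41012). Levels were compared with limma 3.58.1 in R 4.3.3 over 6 groups, with Benjamini-Hochberg adjustment over all tested probes, and the Tnfsf11 minus Tnfrsf11b difference with an exact permutation test in scipy 1.17.1. On simulated data for adult against old rats, 70% of changes of 1 and 85% of changes of 2 (log2) were recovered among 28926 probes, with 2 false calls. The simulation changed 200 probes, with independent noise for each probe and no scan effect. These figures need not hold for the real data. The genes named were all members and, from each list, the called genes with the largest changes, at most 3 per comparison; some items that these rules name are not reported here. The members and lists were chosen with earlier results of these data known. Alternatives were other scalings, background corrections, floors, filters, blocks and left-out rats. The number of arrays limits the precision, and the pups of a litter share a mother.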

Additional observations from a re-analysis of the deposited data

How the results depend on the processing

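Of 1058 changes of single members recomputed under the alternatives, 1009 kept their direction and their side of the threshold. The 4 choices made after seeing the data were to leave out L1, to use array A only or array B only of each adult and old rat, and to make each rat's median per GC class equal. The number of genes called higher in newborn than in adult rats, 2 as reported, was 1 with 75th percentile scaling, with probes expressed in every group, with slide, scan day or rat as a random block, with litter means as replicates, with the methods' t-test, without L1, with array B only and with the mean over the probes of a gene. Calcr was the gene lost, and with probes expressed in every group it was not tested. The number called lower in pups than in adult rats was 2, not 1, with quantile normalization with or without normexp, through Atp6v0d2. Among the 5 genes expressed in every group, 3 were called higher in newborn than in old rats and 5 higher in adult than in old rats. With the methods' t-test after Benjamini-Hochberg adjustment, at the same threshold, 4 of 8 were called higher in adult than in old rats. The number called different among the 4 litters, 3 as reported, was 1 with quantile normalization with or without normexp and with slide, scan day or rat as a random block, and 0 without L1. Leaving out 1 rat at a time gave 1 to 2 genes called higher in newborn than in adult rats, with 1 without adult rat 13 or 15.

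The changes that took the other sign had not passed the threshold as reported. The newborn minus adult change of Ctsk, -0.21 as reported, was 0.61 without L1, 0.12 with array A only and 0.58 with GC classes made equal. That of Tnfrsf11b was 0.088, 0.31 and 0.17 under the same settings, and -0.28 to 0.12 with 1 rat left out. That of Itgb3 was 0.21 with array A only and -0.35 to 0.082 with 1 rat left out. That of Atp6v0d2 was 0.011 with array A only, and its L1 minus old change was 0.013 with quantile normalization. The newborn minus adult change of the Tnfsf11 minus Tnfrsf11b difference was -0.72 with GC classes made equal. Where no value shows it, the cause was not tested. Quantile normalization moved the median newborn minus adult change of all probes from 0.16 to -0.00175. No paired analysis was possible because rats of different groups share no replicate number. Signal over background limits Tnfsf11, Calcr and Itgb3 in old rats.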
